A study of Homo sapiens with 15 samples.

Results

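CP70 is a cisplatin-resistant line derived from the human ovarian cancer line A2780. The comparison described here set CP70 cells given decitabine alone against untreated CP70 cells. It used 6 of the 15 arrays of the series, 3 in each group, taken by the titles of the samples and not by any measured value, and 19775 genes were tested. Decitabine-treated cells had been kept in 0.1 µM of the drug over 48 h, renewed after 24 h, and were harvested 96 h after the drug was removed. The untreated cells were CP70 without either drug, grown in the same medium, and the labels name no vehicle for them. Both groups are 1 cell line in culture, so that no other ovarian tumour is represented. A separate pair of groups is used below as a second measurement of decitabine: CP70 that had both drugs at 0.1 µM, decitabine over 48 h and PXD101 in the last 24 h of it, and CP70 that had only PXD101 at 0.1 µM, over 48 h. PXD101, or belinostat, inhibits histone deacetylases, and its exposure differed in length within that pair. Both groups of the pair were also harvested 96 h after drug removal. Renewal of decitabine after 24 h is recorded for decitabine alone and not for the cells given both drugs. A2780 arrays show the level in the parental line. They also enter the estimate of spread behind each SE and p, and the choice of probe set, which used all 15 arrays.

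Decitabine is a deoxycytidine analog that is built into DNA as cells divide. There it traps the DNA methyltransferases, which normally copy methyl marks on CpG dinucleotides to the new strand, and methylation is lost over later divisions. Genes of germ cells, many of them on the X chromosome, are a classic example of genes kept silent by promoter methylation in somatic cells. Interferon-stimulated genes are known to respond to such drugs in several tumour types. Methylation itself was not measured on these arrays, and a bulk sample cannot tell more cells expressing a gene from more RNA per cell.

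The 3 untreated arrays were not alike, and this bears on every count below. Untreated replicates 1 and 3 correlated across genes at 0.997, whereas replicate 2 reached 0.983 with replicate 1 and 0.986 with replicate 3. Replicate 2 was closer to the 3 PXD101 arrays, at 0.995, 0.996 and 0.997, than to its own group. The decitabine arrays correlated with each other at 0.993 to 0.997. The decitabine mean was at least 2-fold higher than untreated replicates 1, 2 and 3 in 605, 336 and 451 genes, and at least 2-fold lower in 267, 43 and 212 genes. The signal of the actin probe set at the 3′ end, which rises above the 5′ signal as RNA degrades, exceeded it by 0.44, 0.34 and 0.79 log2 in decitabine-treated cells and by 0.86, 0.63 and 0.65 log2 in untreated cells. Its part in the results was not tested.

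Rises with decitabine were larger than falls. Limma called 1583 of 19775 genes (8.01%), of which 963 were higher with decitabine (4.87%) and 620 were lower (3.14%); a call is a Benjamini-Hochberg adjusted p under 0.05. The arrays of both groups did not overlap in 2233 genes that were higher (11.3%) and 1706 that were lower (8.63%). The median change of all genes was 0.02 log2. At least 4-fold, 87 genes rose and 2 fell. At least 16-fold, 17 genes rose, and the largest fall called was 4.3-fold, of MBL2. The split between rises and falls depended on the scaling. Repeating quantile normalization gave 878 higher and 860 lower. Centring each array on its median gave 684 higher and 1666 lower, and moved the median of all genes by -0.12 log2. Without untreated replicate 2 the counts were 2807 (14.2%) and 1866 (9.44%). With replicate 2 as the sole untreated array they were 484 (2.45%) and 257 (1.3%). That fit holds no spread of untreated cells, so that its calls and p, here and below, rest on the spread of the other groups. Leaving out untreated replicate 1 gave 600 higher and 259 lower, and leaving out untreated replicate 3 gave 592 and 257. Without decitabine replicate 2 there were 756 and 373, and without decitabine replicate 3 there were 622 and 375. Rank product, the test named in the study's design text, called 256 genes higher (1.29%) and 117 lower (0.592%). Of these, 254 and 92 were called by limma as well.

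Genes were taken for naming only if they were called, had no overlap between the 3 decitabine and the 3 untreated arrays, and kept the call when any 1 of the 6 arrays was left out. That left 497 rises (2.51%) and 199 falls (1.01%), and with replicate 2 as the sole untreated array 330 of these rises (1.67%) and 59 of these falls (0.298%) were still called. Most of the 20 largest rises among them belonged to 3 classes: antigens of the testis encoded on the X chromosome, other genes of germ cells, and genes that are strongly expressed in the parental line. All 20 were called with replicate 2 as the sole untreated array, and 10 lay on the X chromosome. Their changes lay between 3.56 and 6.71 log2. Many of the untreated values sat near the low end of the scale: 36 of the 87 rises of at least 4-fold started below the lower quartile of gene values, 4.34 log2. There a fold can be understated. Counts in the gene lists below stand beside 4.87% higher and 3.14% lower over all genes tested. Without untreated replicate 2 they stand beside 14.2% and 9.44%. Each gene was read from its brightest probe set. Of the 143 named genes that were called, 65 had several, and in 47 of these at least 1 other probe set was not called in the same direction, in 19 with the opposite sign.

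**Figure D1:**
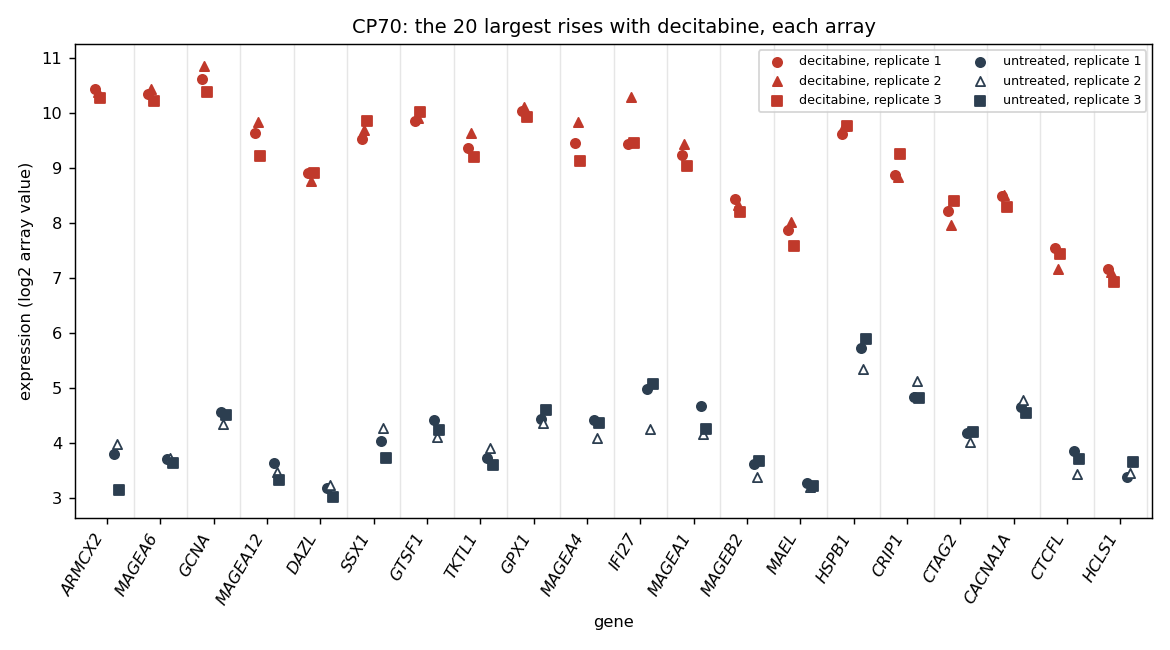
Log2 array values (vertical axis) of the 20 genes with the largest rises (horizontal axis, largest on the left), with 1 point per array, decitabine in red on the left and untreated CP70 in dark blue on the right of each gene. Untreated replicate 2 is drawn as an open triangle. In all 20 genes the decitabine points lie above every untreated point, which was a condition for naming. The open triangle lies near the other untreated points. MAGEA6, for example, was at 10.34, 10.42 and 10.21 with decitabine and at 3.71, 3.72 and 3.63 untreated.

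The MAGE-A genes encode antigens of the testis and of many tumours, which T cells can recognise. All 7 MAGE-A genes measured were called higher, with a median of 4.87 log2 beside 0.02 over all genes. MAGEA6 had values of 10.34, 10.42 and 10.21 log2 with decitabine, against 3.71, 3.72 and 3.63 in untreated cells, a rise of 6.63 ± 0.14 (SE) or 99.2-fold (limma adjusted p = 1.72e-13). MAGEA12 stood at 9.63, 9.84 and 9.22 with decitabine and at 3.63, 3.47 and 3.34 untreated, and MAGEA4 at 9.46, 9.83 and 9.13 against 4.42, 4.08 and 4.35. No overlap between the groups was a condition for naming these 3 genes. None of them was high in A2780, where MAGEA6, MAGEA12 and MAGEA4 averaged 4.07, 3.69 and 3.85 log2. MAGEA11, at 6.30, 6.67 and 5.87 against 3.29, 3.51 and 3.45, had a smaller rise of 2.86 ± 0.17. MAGE-A genes are close copies of each other, so that a probe set may read more than 1 of them.

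Other X-linked cancer-testis antigens were higher in 17 of 28 genes measured and lower in 0 (limma), with a median of 1.05 log2. Before adjustment, p was under 0.05 for 20 higher and 0 lower genes, and rank product called 14 and 0. SSX1, a transcriptional repressor that takes part in the gene fusion of synovial sarcoma, had values of 9.52, 9.68 and 9.86 with decitabine and 4.03, 4.28 and 3.73 untreated (5.67 ± 0.20). MAGEB2 rose by 4.76 ± 0.24, CTAG2, a close relative of the antigen NY-ESO-1, by 4.06 ± 0.16, PAGE1 by 3.39 ± 0.14 and MAGEB1 by 2.75 ± 0.15. For these 5 genes, no overlap between the groups was a condition for naming, beside the calls. With replicate 2 as the sole untreated array 15 of the 28 were called higher.

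Germ cell genes outside these families protect and translate germ cell RNA or silence transposons through piRNAs. Of 36 measured, 20 were higher, with a median of 0.54 log2, and 16 were higher with replicate 2 as the sole untreated array. DAZL, an RNA-binding protein needed for germ cell development, had values of 8.91, 8.76 and 8.91 with decitabine against 3.19, 3.23 and 3.02 untreated, a rise of 5.71 ± 0.11 or 52.4-fold (limma adjusted p = 1.25e-13). GCNA, a germ cell nuclear protein that protects the genome, had 10.62, 10.86 and 10.38 against 4.56, 4.35 and 4.51. GTSF1, a partner of PIWI proteins, stood at 9.85, 9.91 and 10.00 with decitabine and at 4.42, 4.10 and 4.23 in untreated cells. The spread within each group was small beside these differences. MAEL, which acts in piRNA production, had a rise of 4.59 ± 0.12, and TKTL1, a transketolase-like enzyme counted in this list, one of 5.65 ± 0.12. CTCFL, a testis paralog of the insulator protein CTCF, rose by 3.71 ± 0.13.

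Genes of meiotic chromosomes moved less. Of 33 measured, 8 were higher, with a median of 0.14 log2, and 5 with replicate 2 as the sole untreated array. HORMAD1, which marks unsynapsed chromosome axes, had values of 6.31, 6.31 and 5.50 with decitabine and 2.77, 2.85 and 2.91 untreated (3.19 ± 0.18). TEX11, an X-linked crossover factor, rose by 2.00 ± 0.13, SPATA22 by 1.82 ± 0.19, and TEX14, of germ cell bridges, by 0.84 ± 0.13. SYCP2, of the synaptonemal complex, rose by 0.63 ± 0.12, with an adjusted p of 0.105 by limma against replicate 2 alone. A second probe set of SYCP2 changed by -0.08.

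Promoters of 4 of the genes with large rises are shown because decitabine acts on CpG dinucleotides and the sequences differ widely in how many they hold. They are the 250 bases before the RefSeq transcription start, from the tables of GRCh38.p14, given 5′ to 3′ on the gene's own strand with each CpG in capitals. DAZL lies on the minus strand (chr3:16605424-16605673), MAEL on the plus strand (chr1:166975332-166975581), MAGEA4 on the plus strand (chrX:151912224-151912473) and ARMCX2 on the minus strand (chrX:101659851-101660100).
DAZL: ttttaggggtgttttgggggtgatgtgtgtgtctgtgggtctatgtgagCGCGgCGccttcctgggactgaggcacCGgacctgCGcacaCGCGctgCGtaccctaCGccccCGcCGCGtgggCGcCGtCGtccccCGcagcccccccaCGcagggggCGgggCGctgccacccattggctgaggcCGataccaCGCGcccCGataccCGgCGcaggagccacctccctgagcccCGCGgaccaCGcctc
MAEL: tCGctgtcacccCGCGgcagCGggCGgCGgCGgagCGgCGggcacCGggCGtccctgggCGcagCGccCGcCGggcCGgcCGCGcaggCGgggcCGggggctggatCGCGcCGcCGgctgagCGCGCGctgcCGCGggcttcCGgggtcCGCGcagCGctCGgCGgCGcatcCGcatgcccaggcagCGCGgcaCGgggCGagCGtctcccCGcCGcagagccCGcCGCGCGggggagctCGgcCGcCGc
MAGEA4: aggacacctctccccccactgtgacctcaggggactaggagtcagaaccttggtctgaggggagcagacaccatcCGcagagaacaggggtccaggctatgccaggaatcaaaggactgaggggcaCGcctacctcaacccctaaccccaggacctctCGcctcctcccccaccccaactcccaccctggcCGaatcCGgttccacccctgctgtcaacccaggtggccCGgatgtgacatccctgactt
ARMCX2: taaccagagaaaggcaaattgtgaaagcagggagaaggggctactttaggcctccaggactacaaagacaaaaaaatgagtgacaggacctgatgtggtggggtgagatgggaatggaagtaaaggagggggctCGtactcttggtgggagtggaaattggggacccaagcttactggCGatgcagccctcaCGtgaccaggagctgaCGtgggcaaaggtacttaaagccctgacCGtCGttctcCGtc
The stretch of MAEL held 51 CpG dinucleotides and that of DAZL 28, whereas MAGEA4 held 6 and ARMCX2 held 7. Large rises were thus found with CpG-rich and with CpG-poor promoters. Promoters were then taken over 300 bases, 250 before and 50 after the start. The 70 of 87 genes with a rise of at least 4-fold that had an entry held a median of 14 CpG. The 502 of 620 called falls with an entry held a median of 26. The median was 22 over all tested genes and 22 over all called rises, of which 77.8% and 76.5% had an entry. Starting level was not matched. Among genes with an untreated mean below the lower quartile of gene values, the median was 7 in the 3606 with an entry. It was 16 in the 121 of these that were called higher. Only 71.6% to 81.0% of the genes in these sets had an entry, so that a check between them is void. The ETS motif CCGGAAG and the E-box CACGTG, searched on both strands, were each present in 5 of the 18 germ cell promoters of genes called higher (27.8%), and each in 1 of the 15 promoters of those not called (6.67%). They were in 14.4% and 8.9% of the promoters of tested genes that had an entry, and in 10.7% and 7.43% of all 27305 promoters in the table. These differences were not tested, and other lists did not all run this way. Both motifs were in 0 of the 6 promoters of meiotic genes called higher, and in 13.6% and 4.55% of those not called. In other X-linked antigens the E-box was in 21.4% of those called and 30.0% of those not called. The ETS motif was in 14.3% and 0.0% of them. A match of these letters does not show that a factor binds there.

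ARMCX2 had the largest rise among the genes named. It encodes an armadillo repeat protein of a family on the long arm of the X chromosome, in band Xq22, whose members are found at mitochondria. Its values were 10.43, 10.38 and 10.26 with decitabine and 3.80, 3.98 and 3.15 untreated, a rise of 6.71 ± 0.18 or 105-fold (limma adjusted p = 2.5e-12), and A2780 averaged 10.39. BEX1, a small adaptor protein of neurons, had 8.05, 8.38 and 8.05 against 5.30, 5.10 and 5.66 (2.80 ± 0.15), below its A2780 mean of 12.66. ARMCX3, which acts in mitochondrial transport, stood at 9.14, 9.28 and 9.01 with decitabine and at 7.07, 6.47 and 7.05 untreated. BEX5 and BEX4 rose by 2.34 ± 0.15 and 2.23 ± 0.22. Of 23 ARMCX, BEX and TCEAL genes and neighbours measured, 9 were higher and 3 lower; the list's median was 0.10 log2 and became -0.02 with median centring. The 3 falls were small: ARMCX4 changed by -0.61, ARMCX6 by -0.54 and TCEAL1 by -0.34, and only ARMCX6 of the 3 kept its call when each array was left out in turn.

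Over the whole X chromosome 66 of 696 genes were called higher (9.48%), and 27 of the 87 rises of at least 4-fold lay there. Outside the antigen, Xq22, germ cell and meiotic lists the share on X was 30 of 635 (4.72%), and it was 897 of 19006 for autosomal genes (4.72%). These lists were chosen with earlier results of these data known, and were taken out on X only. The equal shares therefore cannot show whether the rest of X has an excess of rises. Chromosome 13 had the lowest share among the autosomes, with 3 of 401 genes higher (0.748%), and chromosome 19 the highest, with 85 of 1320 (6.44%).

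Several of the largest rises were of genes at a high level in A2780. GPX1, the main glutathione peroxidase of the cytosol, had values of 10.03, 10.10 and 9.92 with decitabine and 4.44, 4.36 and 4.60 untreated (5.55 ± 0.16, 46.8-fold), against a mean of 10.84 in A2780. HSPB1, the small heat shock protein HSP27, had 9.62, 9.76 and 9.75 against 5.73, 5.34 and 5.89 (4.06 ± 0.15), and 11.94 in A2780. In both genes the groups stood far apart, and the decitabine level remained under that of A2780. MEST, an imprinted gene expressed from the paternal allele, had 6.48, 6.88 and 6.78 with decitabine and 4.23, 4.04 and 4.20 untreated (2.56 ± 0.15), and 13.29 in A2780. MFAP2, a protein of microfibrils, rose by 2.28 ± 0.22 with an A2780 mean of 10.77. By contrast CRIP1, a LIM protein, HCLS1, a cytoskeletal protein of blood cells, and CACNA1A, a calcium channel subunit, rose by 4.06 ± 0.19, 3.56 ± 0.15 and 3.75 ± 0.20 and averaged 3.89, 3.44 and 4.99 in A2780. Of the 5 probe sets of CACNA1A, 2 were called, and the lowest changed by -0.19.

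**Figure D2:**
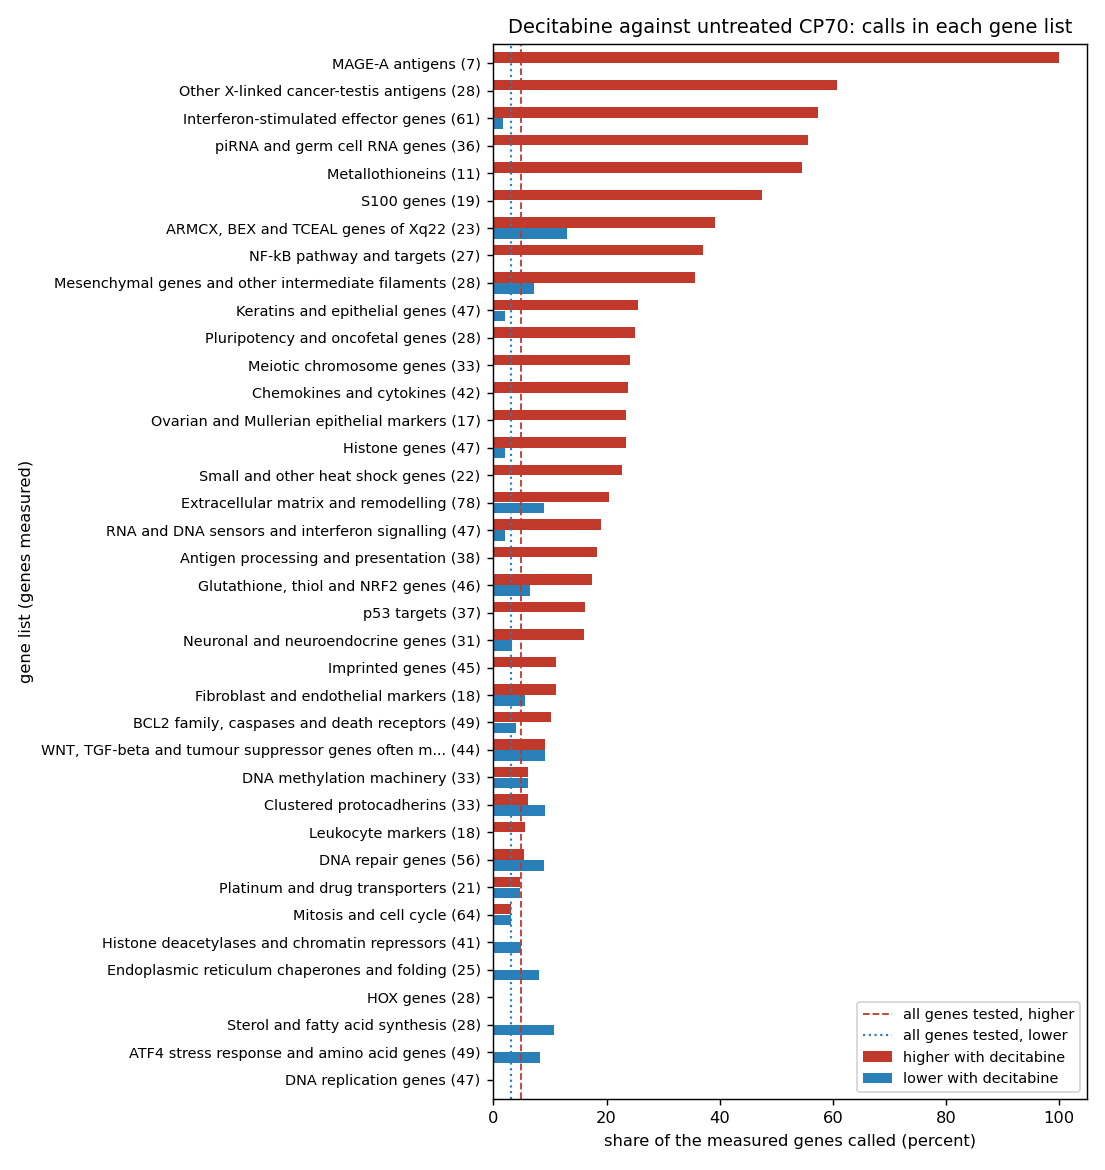
Share of the measured genes of each gene list that was called with decitabine against untreated CP70 (horizontal axis, percent), with higher in red above lower in blue for each list (vertical axis, number of genes measured in brackets). The dashed red and dotted blue lines mark the shares over all genes tested, 4.87% and 3.14%. MAGE-A antigens stand at 100%, interferon-stimulated genes at 57.4% higher, and DNA replication and HOX genes have no bar.

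Interferon-stimulated genes encode proteins that block viruses and are switched on by the factor complex ISGF3. Of 61 measured, 35 were higher (57.4%), and 1 was lower, TRIM25 at -0.54. The list's median was 0.80 log2. The median level over the list was 8.19, 8.51 and 8.11 log2 in decitabine-treated cells and 6.93, 6.93 and 7.16 in untreated cells. That these levels do not overlap is not particular to this list. Deacetylase and repressor genes stood at 8.59, 8.66 and 8.65 against 8.37, 8.32 and 8.38, with a median change of 0.06 log2. IFI27, a mitochondrial protein among the most responsive of these genes, had values of 9.42, 10.28 and 9.45 with decitabine and 4.98, 4.25 and 5.07 untreated, a rise of 4.96 ± 0.66 or 31.0-fold (limma adjusted p = 0.00026). RSAD2, or viperin, had 7.73, 8.56 and 7.63 against 4.95, 5.64 and 5.17 (2.72 ± 0.21). IFI44 had 7.10, 7.49 and 6.93 with decitabine and 4.61, 5.19 and 4.59 untreated (2.38 ± 0.21), while its other probe set changed by 0.35 and was not called. Decitabine replicate 2 was the highest array in each of these 3 genes. The SE of IFI27 also holds the spread of the A2780 arrays, at 4.83, 7.87 and 8.68 log2. XAF1, which promotes apoptosis, rose by 2.91 ± 0.42. CMPK2, a mitochondrial nucleotide kinase, had 9.46, 9.97 and 9.34 against 6.37, 8.43 and 6.35, so that untreated replicate 2 lay between the decitabine arrays and the other untreated arrays. Fewer of these genes passed with replicate 2 as the sole untreated array, 17 of 61, and leaving out 1 array at a time gave 26 to 35. By rank product 19 were higher.

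The promoters of IFI27 and IFI44 are shown because the sequence to which ISGF3 binds is known. They are again the 250 bases before the RefSeq start in GRCh38.p14, IFI27 at chr14:94110486-94110735 and IFI44 at chr1:78649539-78649788, both on the plus strand, with matches to the motif searched, GAAA followed by any 2 bases and a second GAAA on either strand, in capitals.
IFI27: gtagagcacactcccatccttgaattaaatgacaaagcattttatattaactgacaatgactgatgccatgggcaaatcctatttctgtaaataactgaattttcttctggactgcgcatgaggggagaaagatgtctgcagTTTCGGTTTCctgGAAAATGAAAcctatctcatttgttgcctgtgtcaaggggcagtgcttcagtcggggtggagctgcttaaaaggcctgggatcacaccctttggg
IFI44: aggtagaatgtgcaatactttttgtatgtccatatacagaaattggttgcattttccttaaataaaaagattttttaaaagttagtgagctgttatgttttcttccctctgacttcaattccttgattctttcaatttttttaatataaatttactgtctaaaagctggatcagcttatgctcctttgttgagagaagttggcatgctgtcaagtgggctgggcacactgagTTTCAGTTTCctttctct
IFI27 held 2 matches, 1 on each strand, and IFI44 held 1, on the opposite strand. Over 300 bases the motif was present in 31 of the 48 interferon-stimulated genes measured that had an entry (64.6%), and in 996 of 27305 promoters in the table (3.65%). It was present in 21 of 29 called higher (72.4%) and in 10 of 18 not called, where 72.0% of the genes had an entry. The shares of called and not called genes are therefore not compared. The list is one of interferon-stimulated genes, so these shares do not tie the motif to the rise with decitabine.

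Of 47 sensors of foreign nucleic acid and interferon signalling genes, 9 were higher and 1 was lower, with a median of 0.14 log2. RIGI, which senses viral RNA ends, had values of 8.66, 9.29 and 8.62 with decitabine and 6.75, 6.48 and 6.91 untreated (2.14 ± 0.23). IFIH1, or MDA5, which senses long double-stranded RNA, rose by 1.73 ± 0.25, IRF7, a master regulator of interferon genes, by 1.30 ± 0.16, and IRF9, the DNA-binding part of ISGF3, by 1.18 ± 0.25. A second reading of IFIH1 differed, since 1 of its 3 probe sets was called and the lowest changed by -0.07. IFNLR1, a receptor chain for interferon lambda, fell by 0.95 ± 0.19, and its other probe set changed by 0.17. Among the interferons, chosen after their values were seen, IFNB1 was at 4.42, 4.12 and 3.91 against 4.03, 3.73 and 3.67 (0.34 ± 0.15, limma adjusted p = 0.181) and IFNL1 at 4.73, 5.34 and 5.03 against 4.76, 4.72 and 4.66 (0.32 ± 0.14, adjusted p = 0.187). Without untreated replicate 2 the sensor list gave 17 higher and 3 lower, and with replicate 2 as the sole untreated array 6 and 0.

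Antigen presentation genes were higher in 7 of 38 and chemokines and cytokines in 10 of 42, with 0 lower in either list by limma. Before adjustment, p was under 0.05 for 0 and 2 lower genes, and rank product called 0 and 1. PSMB8, a subunit of the immunoproteasome, had values of 6.35, 6.78 and 6.35 with decitabine and 4.25, 3.98 and 4.16 untreated (2.37 ± 0.39). HLA-DMA and HLA-DMB, which load peptides onto class II molecules, rose by 1.29 ± 0.22 and 0.74 ± 0.14, but had adjusted p of 0.12 and 0.211 by limma against replicate 2 alone, and 2 of the 38 genes passed there. CXCL8, which attracts neutrophils, had 6.09, 6.99 and 6.37 against 4.48, 4.22 and 4.65 (2.03 ± 0.28), and CCL5, which attracts T cells, had 7.49, 7.86 and 7.53 against 6.04, 5.57 and 5.56 (1.90 ± 0.17). IL6 rose by 0.96 ± 0.21 and IL23A, a subunit of interleukin 23, by 1.01 ± 0.17. Of the 4 probe sets of IL23A, 1 was called, and the lowest changed by -0.11. NF-kB genes were higher in 10 of 27, with a median of 0.28 log2, and of 0.40 against replicate 2 alone. Leaving out 1 array at a time gave 5 to 12 higher and 0 to 2 lower, and rank product called 2 higher and 1 lower. NFKBIA, the inhibitor that NF-kB itself induces, had 11.01, 10.89 and 11.09 against 10.03, 9.99 and 10.20 (0.92 ± 0.17). The other probe set of NFKBIA changed by 0.07 and was not called. TNFAIP2 rose by 1.42 ± 0.16, while its other probe set changed by -0.02.

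Metallothioneins, which bind zinc and other metals through cysteines, were higher in 6 of 11 measured, with a median of 1.52 log2. MT2A had values of 11.62, 11.82 and 12.04 with decitabine and 9.70, 10.29 and 9.76 untreated, a rise of 1.91 ± 0.20 (limma adjusted p = 2.47e-05). MT1X had 10.88, 11.25 and 11.49 against 8.82, 9.46 and 8.83 (2.17 ± 0.20). Untreated replicate 2 was the highest untreated array in both, but below every decitabine array, as the rule for naming required. MT1E, MT1H and MT1F rose by 1.93, 1.75 and 1.70 log2. All 6 were called in each fit without 1 array and with replicate 2 as the sole untreated array, and these genes too are near copies of each other. AKR1C3, which reduces steroids and aldehydes, rose by 2.31 ± 0.11, and its close relatives AKR1C2 and AKR1C1 by 1.25 ± 0.21 and 0.96 ± 0.21, among 8 higher and 3 lower of 46 thiol and NRF2 pathway genes. GSTO2, a glutathione transferase, had 7.83, 7.80 and 7.78 against 6.50, 4.96 and 6.48, where untreated replicate 2 was the lowest.

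S100 genes, which encode small calcium-binding proteins, were higher in 9 of 19 measured, with a median of 0.65 log2. S100A3 had values of 9.01, 9.54 and 9.37 with decitabine and 5.53, 6.02 and 5.94 untreated, a rise of 3.47 ± 0.39 or 11.1-fold. S100A2 rose by 1.68 ± 0.27 and S100A6 by 1.27 ± 0.21. Both were already above 10 log2 in every untreated array, so that their rises started from high levels. Galectin 3, encoded by LGALS3, had 10.60, 10.69 and 10.64 against 7.56, 7.68 and 7.70 (3.00 ± 0.19), and its other probe set changed by 0.21. SFN, or 14-3-3 sigma, a p53 target of epithelial cells, rose by 2.62 ± 0.18, and CSRP1, a LIM protein of actin bundles, by 3.29 ± 0.17.

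Keratins and epithelial genes were higher in 12 of 47 and lower in 1, and 6 passed with replicate 2 as the sole untreated array. KRT19, of simple epithelia, had values of 6.59, 7.22 and 7.30 with decitabine and 4.04, 4.77 and 4.30 untreated (2.67 ± 0.21), although its other probe set changed by -0.31. KRT8 and KRT18, which pair in simple epithelia, rose by 1.37 ± 0.16 and 0.96 ± 0.19, and CLDN7, of tight junctions, by 2.42 ± 0.26. The fall was that of ESRP1, an epithelial splicing factor, at -1.86 log2, which did not keep its call when each array was left out in turn. Mesenchymal genes and other intermediate filaments were higher in 10 of 28 and lower in 2, FN1 at -0.94 and CDH2 at -0.50. NEFL, of the neuronal cytoskeleton, had 9.97, 10.07 and 10.13 against 6.48, 7.28 and 6.96 (3.15 ± 0.18). NES, or nestin, a filament of progenitor cells, had 9.89, 9.63 and 10.42 against 6.27, 8.73 and 7.19 (2.58 ± 0.41). NEFM rose by 2.89 ± 0.12, while its other probe set changed by -0.03. Smooth muscle genes depended on the untreated array: ACTA2 had 11.67, 11.65 and 11.91 against 9.84, 11.06 and 9.88, and TAGLN had 9.76, 9.93 and 10.37 against 8.05, 9.06 and 7.91, with adjusted p of 0.0598 and 0.142 by limma against replicate 2 alone.

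Matrix genes were higher in 16 of 78 and lower in 7, with a median of 0.06 log2 that became -0.07 with median centring. LOXL1, which crosslinks elastin, had values of 7.12, 7.19 and 7.55 with decitabine and 3.68, 5.01 and 4.35 untreated (2.94 ± 0.28). CCN2, or connective tissue growth factor, had 11.39, 11.36 and 10.78 against 9.05, 8.46 and 9.21 (2.27 ± 0.22). PLAU and PLAT, the 2 plasminogen activators, rose by 1.46 ± 0.16 and 1.83 ± 0.19. Among linker and core histones, 11 of 47 genes were higher and 1 was lower. H1-2, a linker histone, had 11.37, 11.58 and 11.18 against 10.21, 9.03 and 10.00 (1.63 ± 0.23), with untreated replicate 2 the lowest array. H4C8 had the same order, at 7.66, 7.90 and 7.41 against 6.91, 5.52 and 6.75. With replicate 2 as the sole untreated array 14 histone genes passed.

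Imprinted genes were higher in 5 of 45. Other than MEST these were PEG3 (1.87 ± 0.18), PHLDA2 (1.72 ± 0.21), TFPI2 (0.90) and SLC67A1 (0.76 ± 0.16). Of 44 genes often methylated in cancer 4 were higher (9.09%) and 4 lower (9.09%), beside 4.87% and 3.14% of all genes. PYCARD, the adaptor ASC of inflammasomes, had values of 6.80, 6.92 and 7.48 with decitabine and 5.12, 4.82 and 5.09 untreated (2.06 ± 0.16), DKK3, a secreted relative of WNT inhibitors, rose by 1.22 ± 0.19, and TMEFF2 fell by 0.82 ± 0.16. Of 33 clustered protocadherins 2 were higher (6.06%) and 3 lower (9.09%), with PCDHB14 at -1.33 ± 0.16. Of 28 HOX genes, limma called 0 in either direction, 1 higher and 1 lower had p under 0.05 before adjustment, and rank product called 0. Pluripotency and oncofetal genes were higher in 7 of 28, and ZFP42, or REX1, of embryonic stem cells, had 6.68, 6.89 and 5.19 against 3.89, 3.81 and 3.61.

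Falls were smaller and less even across the untreated arrays. The 15 largest among genes that kept their call without any 1 array lay between 1.16 and 2.11 log2 in size. In 12 of the 15 the untreated array closest to the decitabine mean was replicate 2, as it was in 69.7% of all called falls and 45.3% of all genes tested, and 6 were called with replicate 2 as the sole untreated array. MBL2, a lectin of the complement system, had values of 3.68, 3.73 and 3.34 with decitabine and 6.26, 4.44 and 6.36 untreated (-2.11 ± 0.37, limma adjusted p = 0.00246). SLC16A4, of the monocarboxylate transporter family, had 7.02, 6.88 and 5.98 against 9.16, 7.50 and 9.28, and FGF19, an endocrine growth factor of bile acid control, had 5.10, 5.33 and 5.04 against 7.59, 5.58 and 7.20. In these 3 genes untreated replicate 2 lay nearer to the decitabine arrays than to the other untreated arrays. Against replicate 2 alone MBL2 changed by -0.86 log2 and FGF19 by -0.42. PCF11, of transcription termination, fell by 1.26 ± 0.20, while its other probe set changed by 0.41.

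The 6 falls called with replicate 2 as the sole untreated array were C1orf54, DMKN, HTR1F, MMP16, PCDHB14 and UST. C1orf54 had values of 9.10, 8.79 and 8.77 with decitabine and 10.16, 10.22 and 10.14 untreated (-1.29 ± 0.15). HTR1F, a serotonin receptor, had 5.33, 5.33 and 4.68 against 6.34, 6.55 and 6.56 (-1.38 ± 0.16). MMP16, a membrane-bound matrix metalloprotease, had 7.60, 7.37 and 7.17 against 9.05, 8.56 and 8.85 (-1.44 ± 0.17). All 3 untreated arrays lay above all 3 decitabine arrays in these genes, as the rule for naming required. Replicate 2 lay with the others in C1orf54 and HTR1F. DMKN, a secreted protein of the epidermis, fell by 1.26 ± 0.15, and UST, a sulfotransferase of matrix sugars, by 1.57 ± 0.26, with replicate 2 the lowest untreated array in both.

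**Figure D3:**
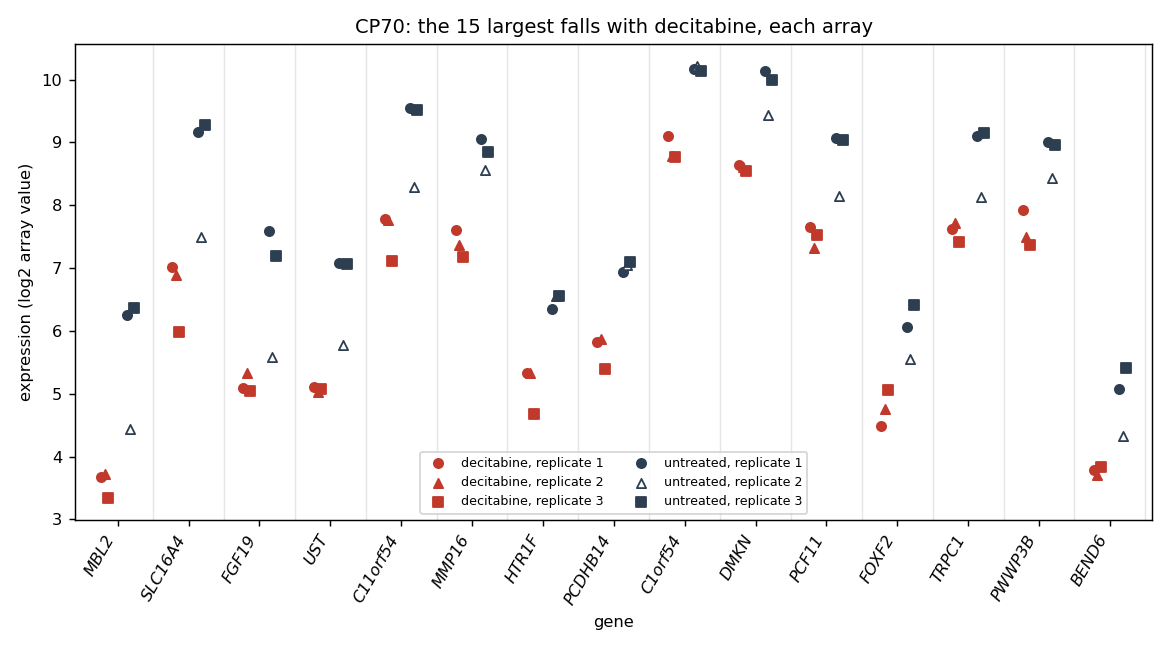
Log2 array values (vertical axis) of the 15 genes with the largest falls (horizontal axis, largest on the left), with 1 point per array, decitabine in red on the left and untreated CP70 in dark blue on the right of each gene. Untreated replicate 2 is the open triangle: in MBL2 it lies at 4.44 between the decitabine arrays and the other untreated arrays at 6.26 and 6.36, while in C1orf54 it lies at 10.22 with the others.

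Some gene classes took opposite directions depending on which untreated array was used. Over 47 DNA replication genes the median change was 0.57 and 0.59 log2 against untreated replicates 1 and 3, and -0.21 against replicate 2. Limma called 0 of them, rank product called 0, and before adjustment p was under 0.05 for 14 higher and 1 lower; without replicate 2 it called 34 higher and 1 lower. MCM5, a subunit of the replicative helicase chosen after its values were seen, had 9.60, 9.56 and 10.24 with decitabine and 8.68, 9.89 and 8.71 untreated. Over 49 ATF4 stress response and amino acid genes the medians were -0.69 and -0.65 against replicates 1 and 3 and 0.42 against replicate 2. Of these genes 4 were lower, FGF19, PHGDH, CBS and WARS1, without replicate 2 25 were lower, and with replicate 2 as the sole untreated array 3 were higher. ASNS, the asparagine synthetase, also chosen after its values were seen, had 12.32, 12.34 and 11.59 against 13.38, 11.74 and 13.29. For both classes the decitabine arrays lay between the untreated arrays, and no direction is given for them.

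DNA repair and mitosis genes had the same pattern in weaker form. Repair genes had medians of 0.31 and 0.22 against untreated replicates 1 and 3 and -0.16 against replicate 2. Of 56, 3 were higher (5.36%) and 5 lower (8.93%), beside 4.87% and 3.14% of all genes. Without replicate 2 the counts were 21 and 7, where 14.2% and 9.44% of all genes were called. ERCC1, of nucleotide excision repair, rose by 0.70 ± 0.13, with 1 of its 3 probe sets called, and RAD51B, of homologous recombination, fell by 1.14 ± 0.21. PMS1, a mismatch repair factor, fell by 0.77 ± 0.11, but its 5 probe sets ran between -0.77 and 0.50 and their mean changed by 0.01. Of 64 mitosis and cell cycle genes 2 were higher (3.12%), CDKN1A and CDC25B, and 2 lower (3.12%), CCND2 and CDKN2A. Without replicate 2, where 14.2% of all genes were higher, 25 of the 64 were. Of 37 p53 targets 6 were higher and 0 lower by limma; before adjustment p was under 0.05 for 9 and 5, and rank product called 2 and 0. CDKN1A, or p21, had 10.51, 10.73 and 10.47 with decitabine and 9.91, 9.10 and 9.95 untreated. Endoplasmic reticulum chaperone genes were lower in 2 of 25, DNAJC3 and ATF6, and in 11 without replicate 2. Sterol synthesis genes were lower in 3 of 28, among them INSIG1 (-0.98 ± 0.20) and SREBF2 (-0.66 ± 0.14), neither of which passed against replicate 2 alone (limma adjusted p of 0.237 and 0.319).

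Several genes given above because a count was small were chosen after their values were seen, and the calls of most of them rested on single arrays. TRIM25, ESRP1, FN1, CDH2, TFPI2, HDAC9, CDKN1A, CDC25B, CDKN2A, CBS, WARS1, ATF6, DNAJC3, ARMCX4 and TCEAL1 each lost their call in at least 1 of the 6 fits without 1 array. Their highest limma adjusted p in those fits lay between 0.0572 for ATF6 and 0.202 for CDC25B.

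**Figure D4:**
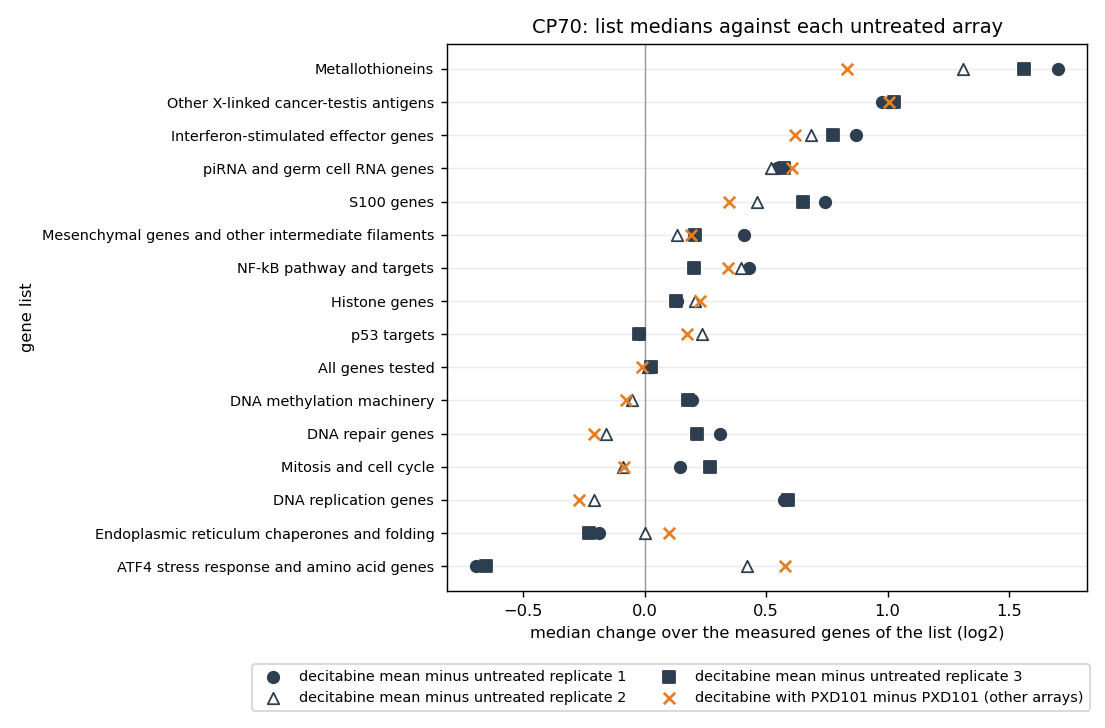
Median change over the measured genes of 15 gene lists and of all genes (vertical axis) on the log2 scale (horizontal axis), for the decitabine mean minus each untreated array (dark symbols, replicate 2 open) and for decitabine with PXD101 minus PXD101 (orange crosses). Metallothioneins stay above 0 for all 4 values, whereas ATF4 genes stand at -0.69 and -0.65 against replicates 1 and 3 and at 0.42 against replicate 2.

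The enzymes that decitabine acts on, and those that activate or degrade it, were read in every array. DNMT1, the maintenance methyltransferase that decitabine traps, had values of 10.02, 9.86 and 9.80 with decitabine and 9.53, 9.99 and 9.43 untreated (0.24 ± 0.13, limma adjusted p = 0.279). UHRF1, which brings DNMT1 to newly copied DNA, had 10.44, 10.26 and 10.52 against 8.68, 10.46 and 8.71 (1.12 ± 0.32, adjusted p = 0.0462). DNMT3B, a methyltransferase that sets new marks, had 8.60, 8.44 and 8.89 against 6.74, 8.69 and 6.92 (1.19 ± 0.35, adjusted p = 0.0534). In all 3 genes untreated replicate 2 was above at least 1 decitabine array, as it was in DNMT3A, the other such enzyme, at 6.90, 6.90 and 7.41 against 5.86, 6.92 and 5.92 (0.84 ± 0.22, adjusted p = 0.029). DNMT3A lost its call without decitabine replicate 3 or untreated replicate 1 or 3 (limma adjusted p of 0.133, 0.138 and 0.144), and UHRF1 without any array but untreated replicate 2 (0.0853 to 0.212). Against replicate 2 alone the changes of DNMT3A and UHRF1 were 0.15 and -0.05 (0.765 and 0.91). TET1, which oxidises methylcytosine, had 7.92, 7.59 and 7.31 against 8.19, 8.66 and 8.36, and fell by 0.79 ± 0.17 (adjusted p = 0.00792) with no overlap. DCK, the kinase that activates decitabine, changed by -0.24 ± 0.10, CDA, which deaminates it, by 0.36 ± 0.14, and SAMHD1, which hydrolyses its triphosphate, by 0.17 ± 0.11, and none of these 3 passed (limma adjusted p of 0.153, 0.149 and 0.358). Of 41 deacetylase and repressor genes 0 were higher and 2 lower by limma, HDAC4 (-0.96 ± 0.14) and HDAC9 (-0.56), and rank product called 0 and 1. Before adjustment p was under 0.05 for 4 higher and 4 lower genes of that list.

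The effect of decitabine could also be read between arrays that hold no untreated CP70, namely decitabine with PXD101 against PXD101. There limma called 1965 genes (9.94%), 1169 higher (5.91%) and 796 lower (4.03%). Of the 963 rises with decitabine alone 529 were called there too (54.9%, and 45.3% of the 1169), 881 had the same sign and 0 were called lower. Of the 620 falls 203 were called there too (32.7%, and 25.5% of the 796), 505 had the same sign, and 2, HMMR-AS1 and TPT1-AS1, were called higher; HMMR-AS1 lost its call for decitabine alone in at least 1 of the 6 fits without 1 array. Among rises of at least 4-fold the number was 84 of 87. Among genes that kept their call without any 1 array it was 397 of 497 rises (79.9%) and 97 of 199 falls (48.7%). Across genes, which are not independent replicates, the changes of both pairs correlated at 0.542 over all genes and at 0.885 over those called for decitabine. The called genes were chosen by their change with decitabine alone, a choice that can by itself raise the correlation.

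All 20 of the largest rises were called in the pair with PXD101, against 6 of the 15 largest falls. ARMCX2 rose by 6.48 there and by 6.71 without PXD101, MAGEA6 by 6.77 and 6.63, DAZL by 5.57 and 5.71, and IFI27 by 5.76 and 4.96. Limma's test of the difference gave adjusted p of 0.292 to 0.971 over the 20, and none passed. MBL2, SLC16A4 and FGF19 changed by -0.35, -0.41 and 0.38 with PXD101 and passed in none of these cases (limma adjusted p of 0.636, 0.624 and 0.561). NES changed by 0.84 and CMPK2 by 1.11, also without passing (0.231 and 0.104). These p use the shared spread, which holds the untreated arrays. Within the pair NES had 9.92, 10.10 and 10.25 with both drugs against 9.11, 9.45 and 9.18 with PXD101. CMPK2 had 9.45, 9.40 and 9.56 against 8.42, 8.32 and 8.34, and FGF19 4.72, 4.97 and 4.89 against 4.49, 4.47 and 4.48. In MBL2 the arrays of the pair overlapped. DNA replication and ATF4 genes had medians of -0.27 and 0.58 in the pair with PXD101, which have the signs found against untreated replicate 2.

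**Figure D5:**
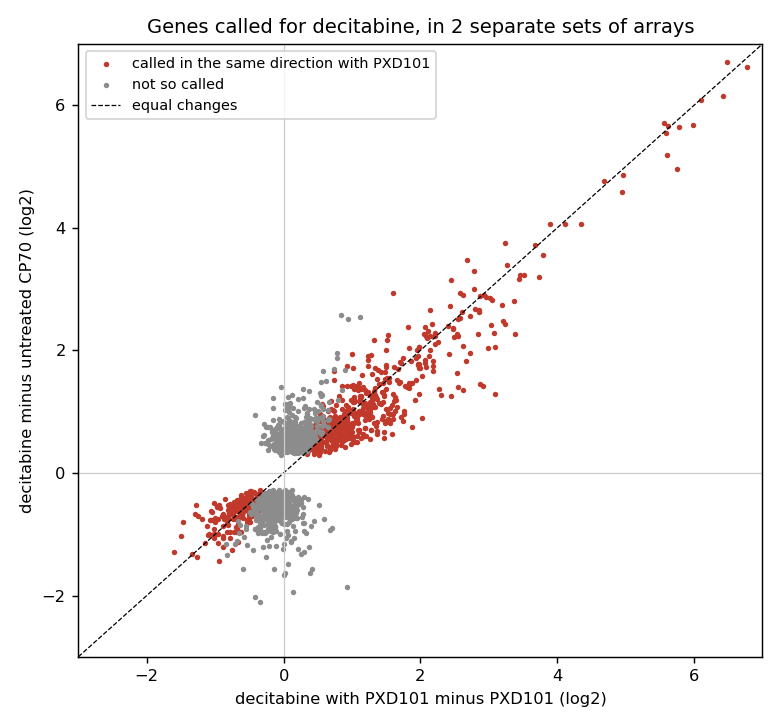
Change with decitabine minus untreated CP70 (vertical axis, log2) against decitabine with PXD101 minus PXD101 (horizontal axis, log2), with 1 point for each gene called for decitabine; red points were called in the same direction in both pairs. Large rises such as ARMCX2 (6.71 and 6.48) lie along the dashed line of equal changes, while many falls lie near 0 on the horizontal axis.

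The difference between both decitabine effects was tested as an interaction in limma. It called 3 genes whose change with decitabine alone was the lower of the pair (0.0152%) and 0 whose change was the higher, and before adjustment p was under 0.05 for 3576 genes in either direction; rank product was not run for it. DPPA4, a chromatin protein of pluripotent cells, had values of 4.87, 4.60 and 4.45 with decitabine and 3.19, 3.42 and 3.25 untreated, a rise of 1.36 ± 0.11, against 2.62 in the presence of PXD101. Of the 3 probe sets of DPPA4, 2 were called higher without PXD101, and the lowest changed by -0.09. TRIML2 rose by 0.63 ± 0.09 and by 1.58 with PXD101. TPT1-AS1, an antisense RNA, fell by 0.53 ± 0.09 without and rose by 0.52 with PXD101. DPPA2, the partner of DPPA4, rose by 1.37 ± 0.11 and by 2.27, a difference that did not pass. Without untreated replicate 2 the interaction called 2347 genes whose change with decitabine alone was the higher and 1712 whose change was the lower, and with replicate 2 as the sole untreated array 0 and 0. Leaving out decitabine replicate 2, or replicate 3 of decitabine with PXD101, also gave 0 and 0, so that the count rests on single arrays.

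As a check of the labelled cell type, PAX8, a factor of Müllerian epithelium, was expressed at 7.35, 7.48 and 7.09 with decitabine and 7.39, 7.16 and 7.28 untreated. The keratins KRT8 and KRT18 were present in all 6 arrays. MUC16, or CA125, and WT1, which mark many serous tumours, were near the low end of the scale, MUC16 at 3.85, 3.81 and 4.07 against 4.05, 3.85 and 4.22 and WT1 at 3.62, 3.65 and 3.64 against 3.63, 3.69 and 3.72. Of 17 ovarian epithelial markers 4 were higher (23.5%), and of 18 leukocyte markers 1, TYROBP (1.30 ± 0.24), or 5.56%, beside 4.87% of all genes. Of 18 fibroblast and endothelial markers 2 were higher (11.1%), ENG and THY1, with COL3A1 lower. THY1 and COL3A1 lost their calls in at least 1 of the 6 fits without 1 array (highest limma adjusted p of 0.0784 and 0.0766). PTPRC, the general leukocyte antigen CD45, was at 3.86, 3.67 and 4.09 against 3.87, 4.32 and 3.67, near the low end of the scale.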

How the data were processed

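RNA was measured on Affymetrix expression arrays after RNeasy extraction and amplification with the WT-Ovation Pico system, per the labels' protocols. The authors deposited 1 table of log2 values for 54675 probe sets on 15 arrays; that they are on a log2 scale follows from their range, and array medians ran from 5.00 to 5.06. R 2.10.1 and affy are named in the submitters' processing notes. How the background was corrected and the arrays normalized is not given in the sources used here. Biological triplicates are stated in the design text, and replicate numbers came from the titles. Arrays give no counts, and their number limits the precision.

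Of the probe sets, 41097 had 1 symbol in the platform annotation, 1801 had several and 11777 had none; 41043 were updated through Entrez IDs, and 62 controls were left out. Each of the 19775 genes was read from the probe set whose mean across the 15 arrays was highest, and 10523 genes had more than 1. The fits used limma 3.58.1 (lmFit and eBayes, R 4.3.3) on all 15 arrays with group means, and were tested on simulated data. Changes are differences of log2 means with the SE. Rank product used 9 pairwise differences and 100 permutations, with false positives held under 5 percent; tables were handled in pandas 2.3.3 with numpy 2.4.6 and scipy 1.17.1 on Python 3.11.15. Promoters and symbols came from RefSeq tables of GRCh38.p14.

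Named genes had to be called, without overlap between the groups, and called without each of the 6 arrays. They were the 20 largest rises and 15 largest falls, the 10 largest of each among genes with an untreated mean above the median gene, up to 5 per list, up to 10 for the difference of effects, and 8 enzymes always given (DNMT1, DNMT3A, DNMT3B, UHRF1, TET1, DCK, CDA and SAMHD1), 148 in all. The 38 lists held 1476 genes, 181 of which had no probe set with a single symbol and were not analysed. Members, lists and tests were chosen with earlier results of these data known. Alternatives changed the arrays fitted, the replicate block, array weights, probe sets, scaling, a filter on low genes and the threshold.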

Additional observations from a re-analysis of the deposited data

Results flagged for a closer look

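In 3 genes the effect of decitabine differed between cells without and with PXD101 by a test of the difference itself (limma interaction). DPPA4 had a difference of -1.26 log2, without minus with PXD101 (adjusted p = 0.0111). Its values were 4.87, 4.60 and 4.45 with decitabine, against 3.19, 3.42 and 3.25 in untreated cells. In the comparison without PXD101, 2 of its 3 probe sets were called higher, and the lowest changed by -0.09. For TPT1-AS1 the difference was -1.04 log2 (adjusted p = 0.0111), with 2 of its 5 probe sets called lower in the comparison without PXD101. For TRIML2 it was -0.95 log2 (adjusted p = 0.0113). DPPA4 and TRIML2 rose in both pairs of groups, whereas TPT1-AS1 fell without and rose with PXD101. All 3 calls were lost without decitabine replicate 2, without replicate 3 of decitabine with PXD101, and with untreated replicate 2 as the sole untreated array. Exposure to PXD101 differed in length within the second pair, and its part in these differences was not tested.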

How the results depend on the processing

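Counts for decitabine against untreated CP70 (963 higher and 620 lower) were 410 and 97 with only the 6 arrays compared, 3746 and 2922 with array weights, 1590 and 1448 over single probe sets, 603 higher among genes above the median level, 1666 lower with median centring, 288 and 56 at 2-fold or more, and 256 and 117 by rank product. Leaving out 1 array gave 592 to 2807 higher and 257 to 1866 lower, and untreated replicate 2 as the sole untreated array 484 and 257. For decitabine with PXD101 against PXD101 (1169 and 796) the counts that moved were 1526 lower with only the arrays compared, 2532 and 2308 with array weights, 2153 and 1825 over single probe sets, 749 higher above the median level, 405 and 68 at 2-fold or more, and 642 to 1067 higher and 296 to 599 lower without 1 array. The interaction (0 higher, 3 lower) gave 2941 and 2388 with array weights, 1 lower with the mean of all probe sets, 8 lower over single probe sets, and 0 lower above the median level, with untreated replicate 2 alone, without decitabine replicate 2 and without replicate 3 of decitabine with PXD101; without 1 array it gave 0 to 2347 higher and 0 to 1712 lower, the upper ends without untreated replicate 2. The causes were not tested, beyond the fewer genes or arrays that some of these settings hold.

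With the replicate number as a block 819 genes were higher and 471 lower for decitabine against untreated cells. The pairing rested on the number alone: deviations from the group means correlated at 0.195, -0.325 and -0.369 for numbers 1, 2 and 3, so the samples were not taken as paired.

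Of the 148 named genes, PMS1 changed sign with the mean of all its probe sets (0.0082, limma adjusted p = 0.966) and UHRF1 with untreated replicate 2 alone (-0.0542, adjusted p = 0.91). DNMT1, DNMT3B and SAMHD1, which were not called, also changed sign with untreated replicate 2 alone (-0.10, -0.05 and -0.02). No other of the 148 changed sign under the alternatives run. With untreated replicate 2 alone 40 named genes no longer passed, and with only the 6 arrays compared 32.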

Other observations

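Heat shock genes were higher in 5 of 22 measured and lower in 0 by limma, with 10 and 0 at an unadjusted p under 0.05 and 2 and 0 by rank product. Beside HSPB1, HSPA2, a testis-enriched member of the HSP70 family, had values of 4.61, 4.86 and 5.78 log2 with decitabine and 3.39, 3.63 and 3.60 untreated (1.54 ± 0.29). BCL2 family, caspase and death receptor genes were higher in 5 of 49 (10.2%) and lower in 2 (4.08%), beside 4.87% and 3.14% of all genes. TNFSF10, the death ligand TRAIL, had 4.97, 4.94 and 4.40 against 3.83, 3.51 and 3.55 (1.14 ± 0.23), and BAK1, a pore-forming effector of apoptosis, had 7.97, 7.93 and 8.03 against 7.46, 7.48 and 7.54 (0.48 ± 0.08). The 2 lower genes were HRK at 4.94, 5.01 and 4.94 against 7.08, 4.96 and 7.73 and GSDME at 7.37, 7.52 and 7.06 against 8.96, 7.52 and 9.06, where untreated replicate 2 lay within the range of the decitabine arrays. Of 21 platinum and drug transporters MVP, the major vault protein, rose by 0.98 ± 0.17 and ABCB1 changed by -0.46, a call that was lost in at least 1 of the 6 fits without 1 array. HRK and GSDME lost theirs as well.

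Of 31 neuronal and neuroendocrine genes 5 were higher and 1 was lower. SCG5, a chaperone of prohormone cleavage, had 4.72, 4.25 and 3.90 with decitabine and 3.51, 3.25 and 3.08 untreated (1.01 ± 0.20), and STMN3, which binds tubulin, had 7.38, 7.58 and 7.72 against 5.56, 7.18 and 5.95 (1.33 ± 0.28). The lower gene was SCG2, a granin of secretory vesicles, at 10.43, 10.54 and 9.91 against 11.85, 10.63 and 11.55. SCG2 also lost its call in at least 1 of these fits, and the other probe set of STMN3 changed by -0.06. In STMN3 and SCG2 untreated replicate 2 was the untreated array nearest to the decitabine arrays.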
